A study of Drosophila melanogaster with 3 samples.

Results

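Of the 30000 peaks called on the pooled replicates, 1399 (4.66%, exact 95% binomial interval 4.43 to 4.91) had their summit inside a protein-coding exon and away from any gene start. They were chosen by position alone: the summit lay in coding sequence of at least 1 transcript and more than 500 bp from every annotated transcription start site (TSS) on assembly dm6. A further set of coding summits lay closer to a TSS and was not counted, since 1924 pooled summits were in coding sequence at any distance. The peaks came from chromatin immunoprecipitation and sequencing (ChIP-seq) of dmrt11E in whole Drosophila melanogaster embryos of 2 to 10 h, males and females pooled. There was 1 group of 3 biological replicates, all from a transgenic line that stably expressed dmrt11E with GFP at its C-terminus, and the precipitation used an antibody against GFP on sonicated chromatin of 200 to 800 bp. No untagged line was analysed here and whole embryos mix all cell types. Peak lists hold no expression values, so cell type markers could not be checked.

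dmrt11E belongs to the DM-domain transcription factors, which bind DNA through an intertwined zinc module and are best known from doublesex, the regulator of somatic sex differentiation in flies. Most mapped binding of a transcription factor lies in promoters, introns and intergenic enhancers, but regulatory elements can also sit within coding exons, where a sequence serves both the protein and a DNA-binding factor. In a ChIP-seq list that is cut at a fixed number of peaks, the lower ranks also hold regions of weak enrichment. The irreproducible discovery rate (IDR) ranks peaks by how well replicates agree on them, and the IDR set here held the 6706 highest signals of the pooled list.

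Only 9 of the 1399 members (0.643%, interval 0.295 to 1.22) were in the IDR set, which held 22.4% of the pooled list. The DNA at 8 of these 9 summits is shown, because these peaks passed the IDR threshold inside coding exons; that of otp is not shown here. Each line gives 101 bases centred on the summit, 5′ to 3′ on the strand of the gene, read from RefSeq's dm6 sequence, and capitals mark matches to AGNNGGCGC on either strand (GCGCCNNCT on the other), a loose form of the core bound by the insulator protein CTCF.
Pde1c: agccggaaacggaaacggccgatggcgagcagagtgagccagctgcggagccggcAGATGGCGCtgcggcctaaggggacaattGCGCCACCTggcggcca
klar: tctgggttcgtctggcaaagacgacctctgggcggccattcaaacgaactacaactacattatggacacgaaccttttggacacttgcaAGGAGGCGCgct
Ubr1: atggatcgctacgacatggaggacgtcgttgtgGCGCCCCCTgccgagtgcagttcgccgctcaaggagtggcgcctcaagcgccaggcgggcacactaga
HisRS: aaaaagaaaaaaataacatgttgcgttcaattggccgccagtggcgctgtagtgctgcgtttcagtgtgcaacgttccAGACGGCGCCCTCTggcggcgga
l(3)mbn: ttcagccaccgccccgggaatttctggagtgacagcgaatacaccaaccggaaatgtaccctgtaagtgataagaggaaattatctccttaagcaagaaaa
hth: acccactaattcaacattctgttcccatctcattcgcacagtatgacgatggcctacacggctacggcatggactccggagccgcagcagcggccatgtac
bif: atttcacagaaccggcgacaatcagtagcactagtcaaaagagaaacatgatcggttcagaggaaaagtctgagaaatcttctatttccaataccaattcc
CG32246: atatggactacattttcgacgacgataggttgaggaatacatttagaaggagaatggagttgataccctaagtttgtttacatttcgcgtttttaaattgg
The windows lie at chr2L:11816531-11816631 (Pde1c, minus strand), chr3L:506161-506261 (klar, minus), chrX:16967572-16967672 (Ubr1, minus), chrX:18517534-18517634 (HisRS, plus), chr3L:6124768-6124868 (l(3)mbn, minus), chr3R:10605309-10605409 (hth, minus), chrX:11681718-11681818 (bif, plus) and chr3L:4622892-4622992 (CG32246, plus).

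The core was found in 5 of the 9 IDR members, the 4 with capitals above and the homeobox gene otp. The motif was chosen after these sequences had been seen, so its share among them is a description and has no test. Windows of the same width over all coding bases more than 500 bp from a TSS held it in 1.95% of 186635 cases, all 6706 IDR summits in 1.52%, and the other pooled summits in 1.12%. Outside the IDR set, whose sequences prompted the motif, 37 of 1390 members held it (2.66%). Of the 30 such members of rank 12000 or better, 1 held it (3.33%), in sgg at rank 8229, and of the 1360 below, 36 did (2.65%). With 1 match among 30 windows, the share at the stronger ranks is too uncertain to be compared with that at the weaker ones. Cores of other factors looked for at the same time, Su(Hw) (GCATACTTT), Zelda (CAGGTAG) and the DRE (TATCGATA), were in 0.143%, 0.572% and 0.143% of the members. In the coding windows their shares were 0.0563%, 0.954% and 0.0841%, and at the other pooled summits 0.434%, 0.5% and 1.23%. None was found in the 9 IDR members.

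The strongest coding-exon peak lay at the very end of Pde1c, which encodes a calmodulin-dependent cyclic nucleotide phosphodiesterase. Its interval, chr2L:11816409-11816776, ranked 490 in the pooled list with a signal of 1286 (the authors' own score, used only to rank peaks within a list), and its summit was 20 coding bases before the stop codon in the last of 8 coding exons. It ranked 259, 394 and 964 in replicates 1, 2 and 3, so all of them placed it among their strongest 1000 peaks. Coding sequence made up 39.7% of the interval. The window held 2 CTCF cores, the nearer centred 9 bp from the summit.

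The second was in otp, the homeobox regulator orthopedia, at chr2R:20884427-20884761. It had pooled rank 577 and ranks 418, 344 and 1210 in the replicates. Its summit was also in the last coding exon, exon 7 of 7, with 93 coding bases left before the stop codon, and all 9 coding transcripts included it. Pde1c and otp were the only members to rank above 2000 in the pooled list.

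Ubr1 and hth had their summits near the start of the coding sequence. Ubr1, an E3 ubiquitin ligase of the N-end rule, had its summit at coding base 51 of 5472, with the start codon within the window shown above, at pooled rank 2660 and replicate ranks 2507, 2171 and 3734. In homothorax (hth), which encodes the homeodomain partner that brings Extradenticle into the nucleus, the summit was at coding base 25, just inside exon 2 of 14 and 8917 bp from the nearest TSS. It ranked 6020 in the pooled list and 4944, 15483 and 5349 in the replicates, lower in replicate 2 than in the others. HisRS, the histidyl-tRNA synthetase gene, had its summit at coding base 34 of a first exon that is coding in 2 of its 4 coding transcripts, with replicate ranks of 3888, 5543 and 18859.

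The other IDR members lay inside their genes or at the end. klar encodes a protein that ties nuclei and lipid droplets to microtubule motors. Its summit, in exon 2 of 18, was coding in 4 of its 9 coding transcripts. The peak ranked 2062, 3175 and 2493, among the first 4000 peaks of each replicate. The peak of bif, a cytoskeletal regulator of photoreceptors, was in exon 2 of 5 and ranked 15061, 4724 and 5361, so replicate 1 held it far lower. CG32246, a gene of a single coding exon, had its summit 17 coding bases before the stop codon, at ranks 5808, 6893 and 10072. l(3)mbn, named for its malignant blood neoplasm mutant, ranked 3380 in the pooled list, and its interval of chr3L:6124679-6124869 met the sharing criterion (reciprocal overlap of at least 50%) in replicate 1 alone. With any overlap it had a peak in each replicate, at ranks 2040, 5019 and 3845. Its summit was 580 bp from a TSS, the closest of the 9.

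The next 11 members by pooled signal ranked from 6874 to 9668 and each was shared with all 3 replicates. They were in InR, the insulin receptor; raskol, a Ras GTPase-activating protein; Tim17b1, a subunit of the mitochondrial import channel; su(w[a]), a splicing regulator; sgg, the GSK3 kinase of Wnt signalling; Sgs3, a salivary glue protein; CG13086; glec; kibra, an upstream activator of the Hippo pathway; Sema2a, a secreted guidance cue; and wb, a laminin alpha chain. On the longest coding sequence that holds each of these 11 summits, those of InR, raskol, su(w[a]), sgg, glec, kibra, Sema2a and wb were in the first or only coding exon. In InR the summit was at coding base 260 of 6432 and 9969 bp from a TSS, with ranks of 6440, 5333 and 10232 in replicates 1, 2 and 3. kibra's was at coding base 27 and ranked 5189, 8932 and 10210. The Sgs3 summit lay in a repeat: its central 31 bases occur 8 times in the genome, so reads there could not be placed uniquely from those bases.

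Members were concentrated at the weak end of the pooled list. Their median rank was 23584 of 30000 (quartiles 19100 and 26934) against 14399 for the other 28601 pooled peaks, and their median signal was 46.6 against 73.8. Just 36 members (2.57%) had a −log10 q of at least 2, against 38.7% of the whole list. Of the 3000 highest signals 0.133% were members, at ranks 9001 to 12000 0.733%, at ranks 12001 to 15000 2.77%, at ranks 18001 to 21000 7.07% and in the last 3000 11.4%. Coding bases over 500 bp from a TSS make up 13.6% of the placed genome, so in the pooled list even the last 3000 held fewer coding summits than an even spread over bases would. Of the members, 1394 had the list's most frequent width of 404 bp with the summit at the middle, as had 84.5% of the other peaks (24168 of 28601).

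**Figure D1:**
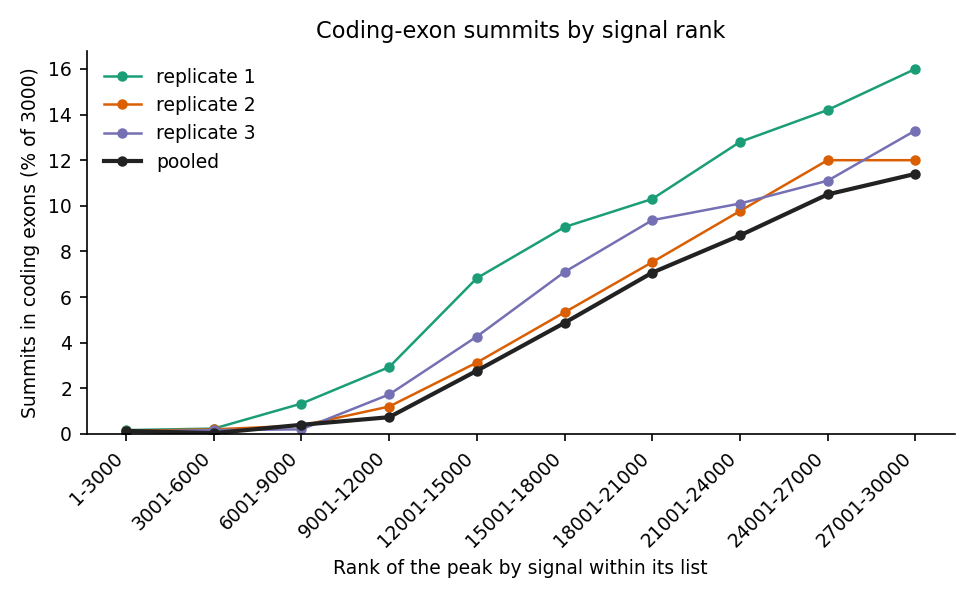
Share of summits in coding exons over 500 bp from a TSS, in percent, for each successive 3000 peaks by signal rank in the pooled list and in the 3 replicate lists. All 4 lines stay below 2% to rank 9000 and climb to between 11.4% and 16.0% in the last 3000 peaks.

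Each replicate list showed the same order by rank. Coding exons held 2216, 1550 and 1724 of the 30000 summits in replicates 1, 2 and 3, or 7.39%, 5.17% and 5.75% (mean 6.10% ± 1.15, SD, n = 3). Among the 6706 highest signals of a replicate the share was 0.154% ± 0.0375, and among the rest it was 7.81% ± 1.47 (SD, n = 3). The top minus the rest came to −7.66 ± 1.45 percentage points, below 0 in 3 of 3 replicates, with an exact two-sided sign-flip permutation p of 0.25, the smallest that 3 replicates allow. Replicate 1 had the most coding summits and replicate 2 the fewest. In the last 3000 peaks of replicate 1 the share reached 16.0%, above the 13.6% of an even spread, while replicates 2 and 3 stayed below it at 12.0% and 13.3%. A −log10 q of at least 2 was reached by 53 of the 2216 coding summits of replicate 1 (2.39%, against 30.7% of its whole list), 155 of 1550 in replicate 2 (10.0%, against 50.2%) and 37 of 1724 in replicate 3 (2.15%, against 36.1%). In each replicate the coding summits passed that limit less often than the list.

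Members were shared with all 3 replicates less often than the other pooled peaks were, and more often with 1 or none. The pooled and replicate lists were made from the same reads, so sharing between them describes the lists and is no independent check. Replicate 1 shared 743 members (53.1%, against 64.4% of the whole pooled list), replicate 2 shared 520 (37.2%, against 66.6%) and replicate 3 shared 653 (46.7%, against 67.3%). Only 115 members (8.22%, interval 6.83 to 9.78) were shared with every replicate, against 35.6% of the whole list. A further 453 (32.4%, against 33.2% of the other pooled peaks) were shared with 2 replicates and 665 (47.5%, against 24.2%) with 1. Another 166 (11.9%, against 5.76% of the other pooled peaks) were shared with none. Of the 665 members carried by 1 replicate, replicate 1 carried 294, replicate 3 carried 227 and replicate 2 carried 144. As shares of all members these were 21.0%, 16.2% and 10.3%, against 7.57%, 9.67% and 6.93% of the other pooled peaks.

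Sharing differed less once peaks of like rank were compared. The share of members minus that of the other pooled peaks was −11.8, −30.8 and −21.7 percentage points in replicates 1, 2 and 3. The mean difference was −21.4 ± 9.52 points (SD, n = 3, exact two-sided sign-flip permutation p = 0.25). With the other peaks weighted to the members' own rank bins of 3000, a comparison added after seeing the data, the differences were 4.21, −11.0 and −2.92 points (mean −3.23 ± 7.60, exact p = 0.75). In each rank bin past 9000, replicate 2 shared a smaller part of the members than of the other peaks and replicate 1 a larger part. All 12 members of ranks 6001 to 9000 were shared with each replicate, and at ranks 27001 to 30000 replicates 1, 2 and 3 shared 38.2%, 24.5% and 27.1%. Sharing with every replicate was also closer at like rank. It was 63.6% of members against 61.6% of other peaks at ranks 9001 to 12000, and 42.2% against 38.1% at 12001 to 15000. From rank 18001 on it was lower for members in each bin, with 0.583% against 2.67% at ranks 27001 to 30000.

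**Figure D2:**
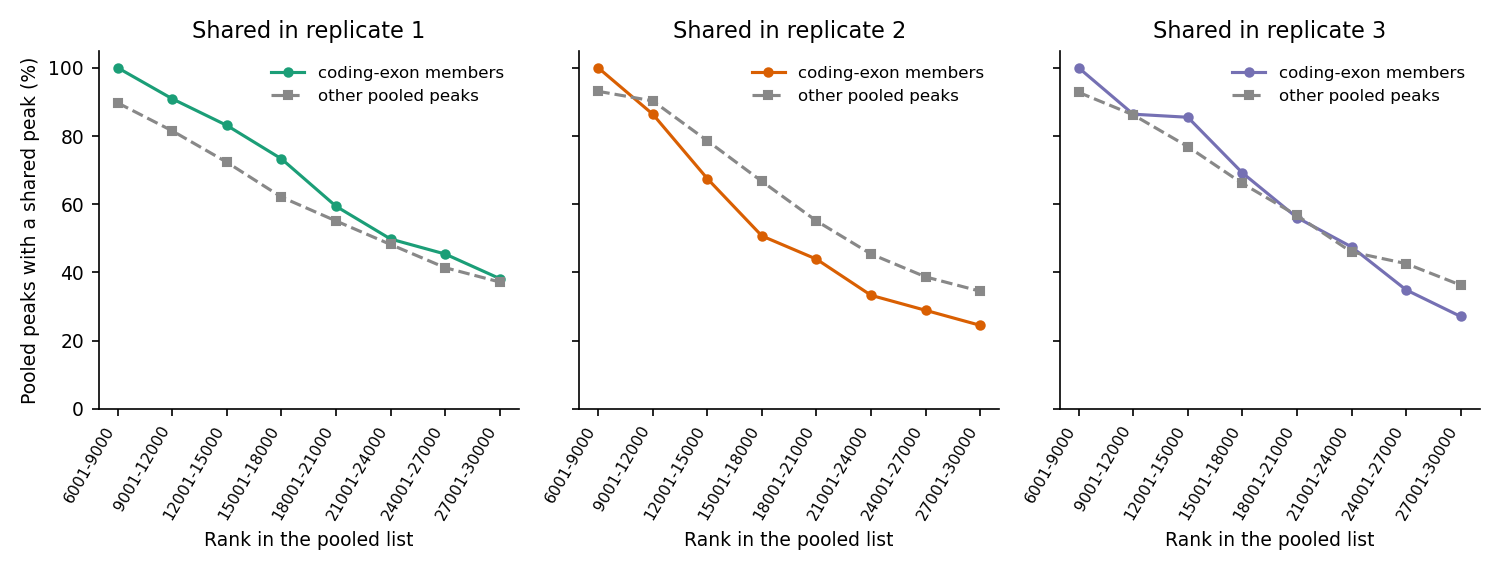
Percent of pooled peaks with a shared peak (reciprocal overlap of at least 50%) in each replicate, by rank in the pooled list from 6001 on, for coding-exon members (solid, circles) and other pooled peaks (dashed, squares). Members lie above the other peaks in replicate 1, below them in replicate 2 past rank 9000, and cross them in replicate 3.

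The replicates also differed from each other in which coding exons they listed. Of the coding-exon peaks of 1 replicate, between 14.4% and 20.9% were shared with another replicate, in 6 ordered pairs, whereas the other peaks were shared at 49.0% to 53.4%. A pooled peak was shared by 34.0%, 34.5% and 38.2% of the coding-exon peaks of replicates 1, 2 and 3, and by 65.8%, 68.4% and 69.0% of their other peaks. Within the replicate lists the median rank of the coding summits was 22485, 23496 and 22821, against 23584 in the pooled list. The shares in this paragraph were not compared at like rank, and how far rank accounts for them was not tested.

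Within genes, members lay along the whole coding sequence, at a median of 50.3% of its length, but per open base they were densest near its start. The 500 bp rule removes bases near gene starts, so counts are given beside the bases left. Placed on the longest coding sequence of each gene, which held 1348 of the 1401 pairs of member and gene, 227 (16.8%, interval 14.9 to 18.9) were in the first coding exon, which held 9.26% of the coding bases open to members, meaning those over 500 bp from a TSS. Internal exons held 614 (45.5%, interval 42.9 to 48.3) against 57.2% of those bases. Last exons held 358 (26.6% against 25.2%) and genes of a single coding exon 149 (11.1% against 8.32%). Per Mb of such bases this came to 134 members in first, 58.7 in internal, 77.8 in last and 98.1 in only exons, against 75.0 over all. Intervals here treat members as independent and cover counting error alone.

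The same was seen in steps along the coding sequence. The first 10% of its length held 11.4% of the placed members on 5.16% of the open bases (163 per Mb), the next 10% held 102 per Mb, and each later step of 10% between 56.0 and 73.2 per Mb. The first 100 coding bases held 55 members (194 per Mb, 4.08% of the members on 1.55% of the bases), and the last 100 held 115 (107 per Mb, 8.53% on 5.87%). Among the 35 placed members of rank 12000 or better, a limit chosen after seeing the data, 6 were in the first 100 coding bases (17.1%, interval 6.56 to 33.6) and 25.7% (interval 12.5 to 43.3) were in internal exons.

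**Figure D3:**
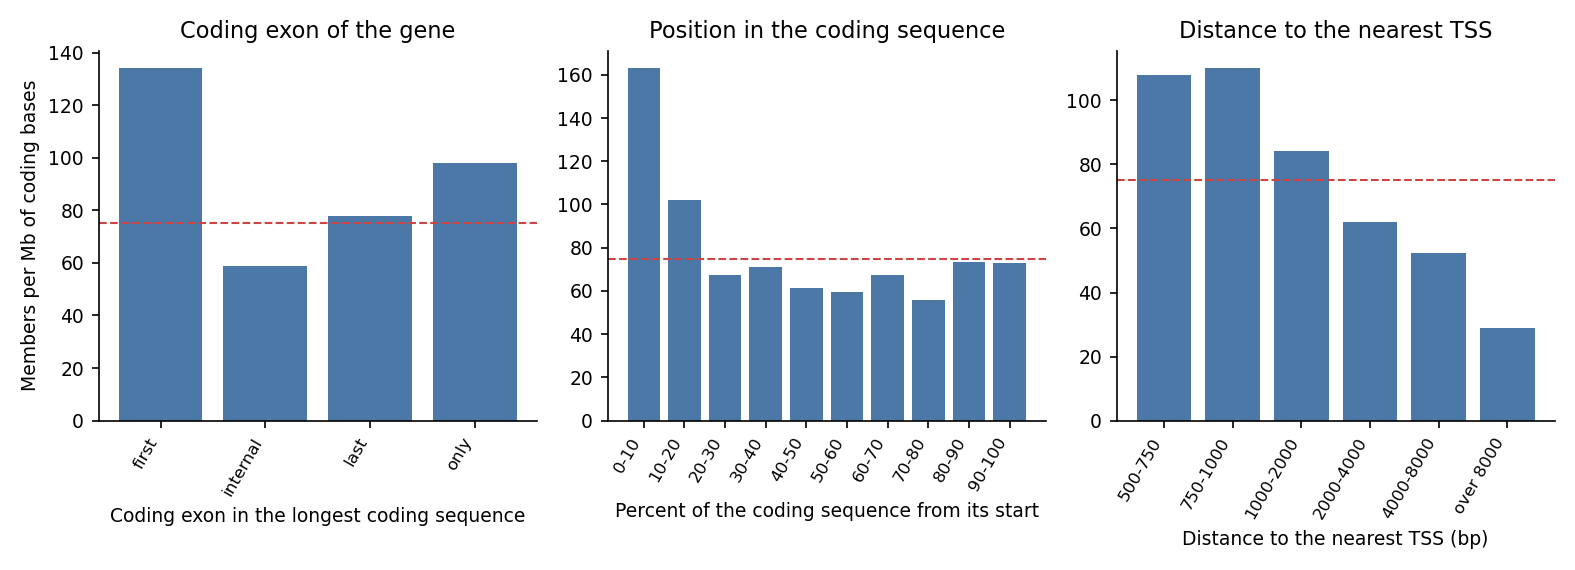
Members per Mb of the coding bases open to them, by coding exon of the gene's longest coding sequence (left), by steps of 10% of that sequence (middle) and by distance to the nearest TSS (right). The dashed line is the 75.0 per Mb of all such bases, and the bars are highest for first exons (134), the first 10% (163) and 750 to 1000 bp from a TSS (110).

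The distance to a gene start went with these positions. Members had a median distance of 1373 bp to the nearest TSS, against 1892 bp for the coding bases open to them. Their density was 108 per Mb at 500 to 750 bp, 110 at 750 to 1000 bp, 62.0 at 2000 to 4000 bp and 28.8 beyond 8000 bp. First and only exons held 129 members per Mb at 500 to 1000 bp and 107 beyond 2000 bp, while later exons held 96.2 and 46.2 at the same distances. In both distance ranges first and only exons were the denser.

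Exon length and the distance to exon edges were described in the same way. Members were densest in exons of at most 200 bp (95.4 per Mb) and sparsest in exons over 1600 bp (42.2 per Mb), and their exons had a median length of 654 bp, against 826 bp at the median open base. The distance from a summit to the nearer edge of its coding exon had a median of 122 bp, against 170 bp over windows tiled along open coding bases. For the 39 members of rank 12000 or better it was 54 bp, with 15 of them (38.5%, interval 23.4 to 55.4) within 50 bp of an edge, and for the 1360 below it was 124 bp, with 24.6% within 50 bp, beside 20.7% of the tiled windows. Most members covered noncoding bases as well: coding sequence made up a median of 84.9% of the interval, and 483 intervals (34.5%) were coding throughout. A summit was coding in all coding transcripts of its gene in 1180 of 1401 pairs (84.2%), and 30 members also lay in a 5′ UTR and 61 in a 3′ UTR of another transcript.

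Coding summits lay close to the TSS limit on both sides, with pooled ranks that overlapped. The 3 members just outside it, in CG43367, HP1D3csd and CG1827, were each 502 bp from a TSS and ranked 16462, 21212 and 26428. The 3 coding summits just inside, in PIG-K, CG13516 and HemK2, were at 498, 496 and 492 bp and ranked 26178, 26315 and 18799. CG1827 was shared with replicates 1 and 2, and the other 2 of these members with replicate 3 alone.

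Members lay nearer to strong binding than coding bases in general did. Another IDR summit lay within 1000 bp of 129 members (9.22%, interval 7.76 to 10.9), against 4.35% of the open coding bases, and within 5000 bp of 63.3% against 37.6%. The median distance was 3426 bp against 7339 bp. Within 500 bp the order did not hold, with 4 members (0.286%) against 0.407% of bases.

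By chromosome arm the density ran from 27.4 members per Mb of open coding bases on chromosome 4, with 7 members, to 89.2 on 2R, with 319. Arms 3L, 2L, 3R and X had 81.5, 74.6, 67.7 and 67.7 per Mb. The Y, with 0.308% of the open coding bases, had none of the 1399, which allows a share of up to 0.263%.

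A member was found in 1199 genes, 9.66% of the 12417 protein-coding genes with coding bases open to one. In 1069 of them there was 1 after overlapping members were merged, in 110 there were 2, in 14 there were 3 and in 6 there were 4 or more. Longer genes had one more often: 2.38% of genes with up to 457 open bases, 7.87% of those with up to 1007, 11.8% of those with up to 1831 and 16.6% of longer ones. Per Mb these longest genes were the sparsest, at 57.7 members against 96.3 to 114 in the other classes. Of the 1199 genes, 478 (39.9%, interval 37.1 to 42.7) had an IDR summit within 500 bp of one of their own TSSs, against 25.4% of all genes open to a member. Genes with such a promoter summit had a member in 15.2% of cases (99.1 members per Mb) and genes without one in 7.78% (64.4 per Mb).

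The gene with most members was lola, a BTB zinc finger regulator of axon growth that makes many proteins by joining shared 5′ exons to alternative 3′ exons. It had 8 members, 7 after merging, along a gene of 61.4 kb with 24 coding transcripts. The first lay in exon 2, which is coding in all 24 transcripts. The other 7 lay in exons coding in 1 or 2 transcripts, 16417 to 42207 bp from the gene's 5′ end. Their pooled ranks ran from 12391 to 25554, and the member of rank 15821 was the only one of the 8 shared with every replicate. Coding exons up to 11284 bp from the 5′ end hold a small part of lola's 14600 open coding bases. Most open bases of lola thus lie beyond them, as 7 of its 8 members do. A preference for alternative exons was not tested.

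wb and pyd had 5 members each. In wb 4 members lay in exons 1 to 4 of its longest coding sequence, at ranks 18836 to 27862 and each shared with 1 or 2 replicates. The fifth, at rank 9668, was in the first coding exon of a shorter form, 45411 bp from the gene's 5′ end, and was shared with all 3 replicates at ranks 20852, 7372 and 13187. In pyd, which encodes the ZO-1 protein of cell junctions, a member at rank 14448 lay alone in exon 3, and the other 4 lay 99064 to 103617 bp from the gene's 5′ end at ranks 16895 to 28286. None of the 5 was shared with all replicates.

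**Figure D4:**
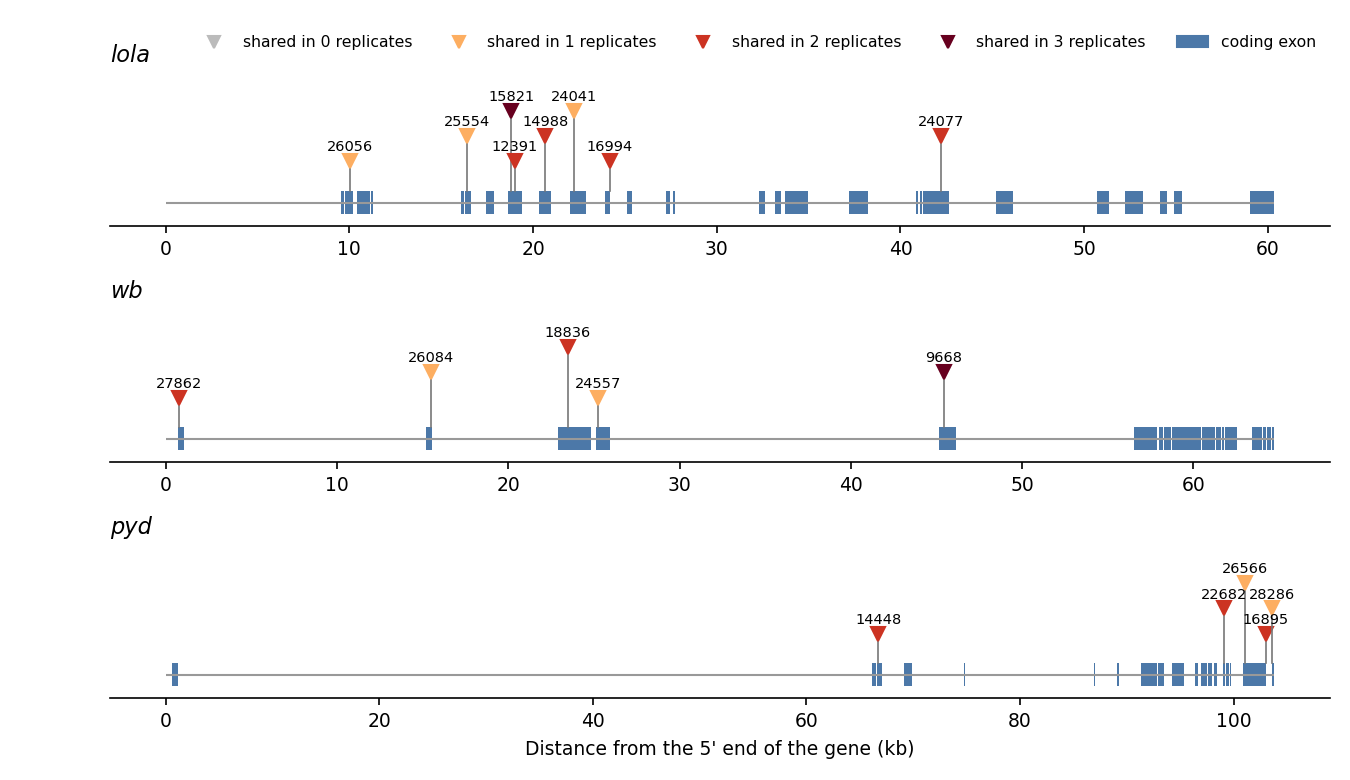
Coding exons of all transcripts (boxes) and members (triangles) of lola, wb and pyd by distance from the gene's 5′ end in kb, with each member's rank in the pooled list as its label and the number of replicates that share it as its colour. In lola 7 of 8 members lie on alternative exons, which also hold most of its open coding bases. In wb the best ranked (9668) lies alone at 45 kb.

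Other genes with several members had weak ones. CG44838, Tollo (Toll-8, a leucine-rich repeat receptor) and sima (the hypoxia factor HIF-alpha) had 4 each, the best at ranks 18776, 20478 and 19402. Tollo is a single coding exon of 4038 bases, and its first 3 members were each carried by 1 replicate and by a different one in turn. All 4 members of sima were carried by 1 replicate each. Of the genes with 3, raskol, kibra and rols, a scaffold for myoblast fusion, each had 1 member shared with every replicate, at ranks 7108, 9009 and 11474. In each of these 3 genes it was in a first coding exon and the others were at rank 20853 or below. CG9380 also had 3, the best at rank 14154 and in replicate 1 alone.

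Across 25 gene lists the share of genes with a member ranged from 0 to 36.4%, beside 9.66% of all genes open to one. The lists differ in gene length, which itself went with the share, so the number of members per Mb of open coding bases is given for each, beside 75.0 over all. These densities rest on at most 13 members a list.

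Signalling and nuclear receptor genes were among the lists with the highest shares. Of 22 nuclear receptor and ecdysone response genes 8 had a member (36.4%, interval 17.2 to 59.3, 177 per Mb): Eip75B, Hnf4, Hr3, Hr39, Hr4, Hr51, svp and usp. The best ranked of this list was in Hr3, an orphan receptor induced by ecdysone, at 14266. Eip63F-1, with a member at rank 12669, was not on it. Of 43 genes of the Wnt, Hh, Dpp, EGFR and FGF pathways 12 had one (27.9%, interval 15.3 to 43.7, 129 per Mb), among them the ligands spi, dpp, hh and pyr, the receptors Egfr, btl and fz2, and the antagonist aos. Within this list the best was in aop, the repressor at the end of the Ras pathway, at rank 11346. The Wnt kinase gene sgg, with a member at rank 8229, was not on the list. In the Notch list 4 of 21 had one (122 per Mb), led by E(spl)mbeta-HLH at rank 12345, and both the receptor N and the ligand Ser were among them.

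Patterning and lineage regulators followed. Segmentation genes had a member in 7 of 28 cases (interval 10.7 to 44.9, 211 per Mb), with 3 members in the gap gene Kr, the best at rank 12222, and others in en, hh, hry, nkd, odd and opa. Mesoderm and muscle regulators had one in 6 of 26 (193 per Mb), led by the homeobox gene lbl at rank 10402 and followed by org-1 at 17029 and Doc2 at 18415, both T-box factors. Nervous system regulators had one in 5 of 26 (129 per Mb), with SoxN at rank 15410, the glial regulator repo at 18430 and brat at 19245. Of the early zygotic and dorsal-ventral genes 4 of 18 had one (173 per Mb), and zld, the pioneer factor Zelda, had 3. Among the 8 Hox genes just Ubx had one, at rank 23648 (78.8 per Mb).

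Adhesion and matrix genes are long, and 6 of 17 matrix genes (35.3%, interval 14.2 to 61.7) had a member, with wb first and SPARC and Tsp next at ranks 18441 and 19347. So did 9 of 29 axon guidance and neuronal adhesion genes (31.0%, interval 15.3 to 50.8), where Sema2a at rank 9637 stood ahead of Toll-6 at 19815 and robo1 at 20097, and 5 of 22 cadherin and polarity genes, with baz, sdt and shg (E-cadherin) the best ranked. Per Mb these 3 lists, at 91.4, 74.4 and 54.8 members, lay on both sides of the 75.0 of all open coding bases.

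Chromatin and cell cycle genes had members in 6 of 24 Polycomb and Trithorax genes (72.2 per Mb), led by the remodellers kis at rank 10298 and osa at 11403, in 4 of 26 other chromatin regulators (66.3 per Mb), led by Top2 at 14571, and in 8 of 30 cell cycle and replication genes (26.7%, interval 12.3 to 45.9, 171 per Mb), led by the Cdc25 phosphatase stg at 19633. Germ line and gonad genes had one in 4 of 21 (81.5 per Mb), with the differentiation factor bam at rank 17632, then tud at 20143 and ovo at 24222.

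Genes for abundant cell components ran from 3.85% to 20.8%. Ribosomal protein genes had a member in 7 of the 60 that had open bases (11.7%, interval 4.82 to 22.6), with RpL13 the best at rank 13471. Their coding sequences are short, with a median of 231 open bases, so their 8 members came to 468 per Mb, the highest density of the 25 lists. Translation factors had one in 5 of 24 (143 per Mb), with eIF4E1 first at rank 14788, and glycolytic enzymes in 2 of 13 (139 per Mb), Pfk and Gapdh2. Actin and tubulin genes had one in 2 of 30 (45.2 per Mb), alphaTub84B and Act87E, sarcomere genes in 3 of 24 (14.2 per Mb) and chaperones in 1 of 26 (28.8 per Mb), CCT5.

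By share of genes, the lowest lists were the chemosensory receptors, cuticle genes, chorion and yolk genes, and DM-domain genes. Per Mb, sarcomere genes (14.2) and chaperones (28.8) lay below the receptors. Odorant, gustatory and ionotropic receptors had a member in 6 of 179 (3.35%, interval 1.24 to 7.15, 41.6 per Mb), the best in Gr39b at rank 10048, then Gr63a at 16311 and Ir21a at 19827. Cuticle and apical matrix genes had one in 1 of 96 (1.04%, interval 0.0264 to 5.67, 7.06 per Mb), which was tyn. None of the 17 chorion and yolk genes had one, an interval of up to 19.5%, and none of the 4 DM-domain genes, which include dmrt11E itself, an interval of up to 60.2%.

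**Figure D5:**
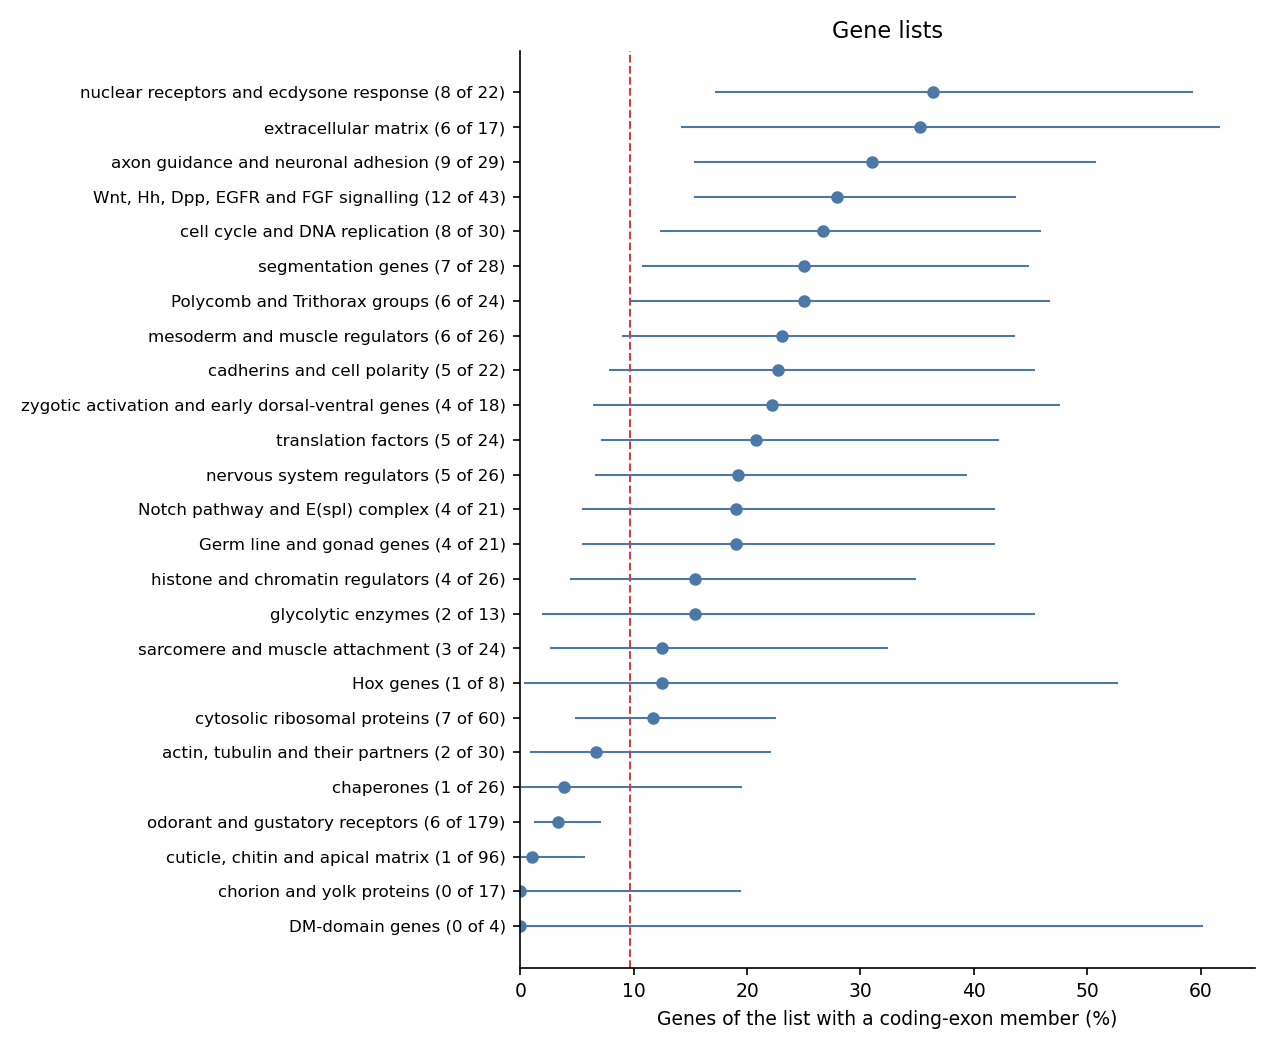
Percent of the genes of each list that had a coding-exon member, with exact 95% binomial intervals and, in the labels, the number of genes with a member and the number open to one. The dashed line is the 9.66% of all such genes, whatever their length; genes with over 1831 open bases had a member in 16.6% of cases. Lists range from 0 to 36.4% and most intervals are wide.

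In base composition the members were closer to coding sequence at large than to the rest of the list. Their summits were chosen to lie in coding sequence, so this order is no independent result. The same holds for the motif contrasts with the other pooled summits below. The 101 bases around the summit had a median GC content of 54.5% (quartiles 49.5 and 59.4), against 53.5% over tiled coding windows and 36.6% at the other pooled summits. Within coding sequence the density climbed with GC content, from 49.1 members per Mb below 40% GC to 62.2, 78.9 and 93.5 in the next bands of 10 points and 113 above 70%.

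Short motifs were looked for on both strands of these windows, and 3 of them were about as frequent as in coding sequence at large. The DM-domain core ACAATGT was in 16 members (1.14%, interval 0.655 to 1.85), in 1.39% of tiled coding windows and in 1.79% of the other pooled summits. GAGAG was in 11.5% of members against 12.3% of coding windows, and CANNTG in 43.0% against 43.1%. Runs of 8 A were in 0.0715% of members, 0.485% of coding windows and 6.87% of the other pooled summits, and CACACACA in 0.0715%, 0.254% and 2.43%. The repeat CAGCAGCAG, which in coding sequence can encode a glutamine run, was in 67 members (4.79%, interval 3.73 to 6.04), against 2.82% of coding windows and 0.510% of the other pooled summits. In the replicates' own coding summits it was in 3.56%, 3.87% and 3.54%.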

How the data were processed

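Peaks were called on each replicate and on the pooled replicates against the same 1 control on assembly dm6, per the file headers, and the sources used here do not give the aligner or the caller. For each peak the deposited lists have a signal value, a score of the authors' own used here to rank peaks, and a −log10 q that the authors deposited, used with a minimum of 2. Lists are fixed at 30000 peaks, and read depth is unknown. The labels' age field could not be read as an embryo age, so the age is from the source name. Nothing in the labels names separate collections, so spreads measure these 3 samples.

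Summits were placed on Ensembl release 115 genes without transposable elements (23694 TSS positions), and open coding bases are those over 500 bp from a TSS. Peaks were shared at a reciprocal overlap of at least 50%. Shares carry exact 95% binomial intervals, and replicate means an exact sign-flip permutation test. Named were the genes of IDR members, the 20 highest signals, the 10 genes with most members, 3 per gene list and 3 summits on either side of the TSS limit; other list genes and those of an added motif are named from their counts. The members and the gene lists were chosen with earlier results of these data known, and the CTCF, Su(Hw), Zelda and DRE cores were added after the summit sequences were seen. In the lists 4 symbols found no gene, among them Dl in the Notch list and nos in the germ line list. Procedures were tested on simulated data. Python 3.11.15, numpy 2.4.6, scipy 1.17.1, pandas 2.3.3 and matplotlib 3.10.9 were used.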

Additional observations from a re-analysis of the deposited data

How the results depend on the processing

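The share of pooled summits in coding exons, 4.66%, was 5.49% with a TSS window of 250 bp, 3.05% with 1000 bp, 3.93% where all coding transcripts had to include the summit, 5.03% over merged regions and 0.310% at −log10 q of at least 2. Over the pooled peaks shared with both other replicates, leaving out each replicate in turn, it was 1.62% to 2.28%. The replicate mean of 6.10% became 4.08% with 1000 bp, 0.648% at that q and 5.46% to 6.57% without 1 replicate. Members shared with every replicate, 8.22%, became 13.2% with any overlap, 4.72% with summits within 100 bp, 1.07% with the 15000 highest replicate peaks and 80.6% at that q, where 36 members remained. Sharing with both other replicates was 16.7% to 21.9%. The median rank of 23584 was 17470 to 17976 over members shared with both other replicates and stayed within its interval otherwise. Internal exons held 45.5%, and 52.0% with 1000 bp, 25% at that q and 25.7% to rank 12000. Genes with a member, 9.66%, became 10.2% with 250 bp, 8.78% with 1000 bp, 8.54% in all transcripts and 0.290% at that q. The median GC of 54.5% was 53.2% with 100 bp to either side and 52.5% at that q. The difference in sharing, −21.4 points, was −3.23 within rank bins, and the CTCF core's 3.00% was 15.4% to rank 12000, where 5 of the 6 were the IDR members that prompted it, and 3.33% and 2.66% outside the IDR set to rank 12000 and in all. The cause of these shifts was not tested beyond what each setting removes. No paired analysis was possible because there is 1 group, and the sign-flip tests compare peak sets within each replicate. The fixed list length decides how many weak peaks enter, and without read depth the precision of single weak members is unknown.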

Other observations

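Of the coding-exon peaks of a replicate, 1369 in replicate 1 (61.8%), 918 in replicate 2 (59.2%) and 981 in replicate 3 (56.9%) overlapped no pooled peak at all, against 22.4%, 20.9% and 22.2% of their other peaks. The strongest of them were in sotv, klu and Trap1 (ranks 7301, 7702 and 7805 in replicate 1), in fw, Tdg and Alh (8115, 10437 and 10514 in replicate 2), and in CG10175, Rgk3 and Alg9 (10406, 10901 and 11518 in replicate 3). These 9 were chosen by their rank. The shares of replicate peaks that overlapped no pooled peak were not compared at like rank.

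Beside Sgs3, the central 31 bases of 5 members occur more than once in the genome, in nompB, CG15715, RpS15Aa and CG33110 at 2 copies each and in Act87E at 3. Their pooled ranks were 26444 to 29933. A pair of members lay in coding sequence of mod(mdg4), a gene whose transcripts are joined from separate precursors, and also of a second annotated gene, pre-mod(mdg4)-N at rank 17409 and pre-mod(mdg4)-O at rank 27852.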
